A study of Sus scrofa with 6 samples.

Results

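The miRNAs described here are ssc-miR-132, ssc-miR-212 and ssc-miR-21-5p (ssc for Sus scrofa, left out below), 3 of the 453 porcine miRNAs listed for small extracellular vesicles (s-EVs) from follicular fluid. They were chosen by name, because luteinizing hormone (LH) or its analogue hCG induces them in granulosa cells of the mouse. The s-EVs came from the ovaries of prepubertal Landrace × Large White gilts collected at slaughter, and the labels and methods name no hormone treatment. Fluid of follicles of 2 to 6 mm by the labels (the methods give a higher lower bound) was pooled by the stain of the oocyte with lissamine green B, a dye that enters cells with damaged membranes. The HQ group held fluid of unstained oocytes (high quality in the labels) and the LQ group fluid of stained oocytes (low quality), with 3 libraries each from 0.5 mL of fluid. Each library is thus a pool, and the numbers of follicles and animals in it, or whether pools shared animals, were not found in the labels or methods. The p-values therefore measure only the spread between these pools.

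In granulosa cells, LH raises cAMP, and the transcription factor CREB is known to drive the locus from which miR-132 and miR-212 are transcribed together. miR-132 is known to repress the corepressor CtBP1 in mouse granulosa cells. miR-21 is a broadly expressed miRNA that limits cell death, and its loss raised apoptosis in mouse granulosa cells. Every miRNA acts mainly through its seed, bases 2 to 8, which pairs with target mRNAs, so the seeds show which of the members could share targets.

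The mature sequences are shown because the names hide a difference between miR-132 and miR-212. They come from RefSeq (Sscrofa11.1), are written 5′ to 3′, and have the seed in capitals. miR-132 and miR-212 were matched by name, and miR-21-5p by name without its arm.
miR-132: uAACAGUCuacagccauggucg
miR-212: aCCUUGGCucuagacugcuuacu
miR-21-5p: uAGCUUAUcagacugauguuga
The 3 seeds differ from each other, and no other matched miRNA of the table shares any of them. miR-132 is the 3′ arm of its hairpin, while the sequence annotated as miR-212 is the 5′ arm. The hairpin of MIR212 is printed here with that annotated sequence in capitals, to show what lies in its other arm.
MIR212 hairpin: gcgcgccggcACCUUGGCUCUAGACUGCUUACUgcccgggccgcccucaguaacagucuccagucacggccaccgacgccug
The 7 letters of the miR-132 seed, AACAGUC, occur once in this hairpin, at bases 52 to 58, outside the annotated miR-212. Searched on the transcribed strand only, they occur in 3 of the 315 annotated hairpins (0.952%), those of MIR132, MIR183 and MIR212. The stretch that aligns with miR-132 by this seed, bases 51 to 72, is identical to miR-132 at 17 of 22 bases.
MIR212 bases 51 to 72: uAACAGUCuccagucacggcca
In mouse and human, this 3′ arm is the product usually called miR-212, and it belongs to the seed family of miR-132. The value named miR-212 here therefore stands for the 5′ arm, as far as the names match, and the labels and methods do not say how reads of the 3′ arm were counted.

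All 3 members lie on chromosome 12. Mature miR-132 is at chr12:48162635-48162656 and miR-212 at chr12:48163103-48163125, both on the minus strand, and 351 bases separate their hairpins. The nearest protein-coding genes in the annotation are OVCA2, 850 bp from MIR132, and HIC1, 4725 bp from MIR212. miR-21-5p is at chr12:36065284-36065305 on the plus strand, 12.1 Mb away. No other annotated gene overlaps any of the 3 hairpins.

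**Figure D1:**
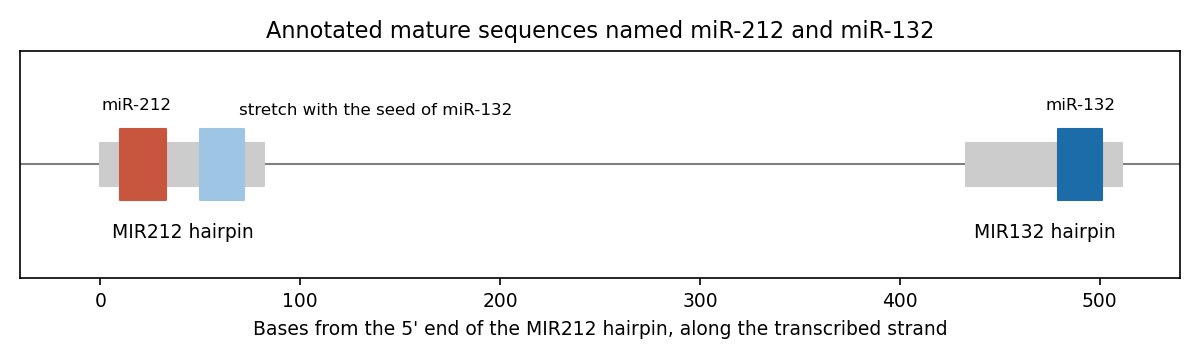
Position of the annotated mature miR-212 (red) and miR-132 (dark blue) in their hairpins (grey), in bases from the 5′ end of the MIR212 hairpin along the transcribed strand. The light blue stretch, bases 51 to 72, holds the miR-132 seed in the arm of MIR212 opposite to the annotated miR-212.

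The values are CPM adjusted by TMM, a scaling that aligns the bulk of the miRNAs between libraries. Every value was a whole multiple of a step in its library, and with a step taken as 1 read the libraries held 898530 (LQ replicate 1) to 3159116 (LQ replicate 3) miRNA reads. A mature miRNA is read whole, so levels were compared without scaling for length (22, 23 and 22 bases). Levels of different miRNAs are thus shares of reads, and whether the libraries captured unlike sequences equally was not tested. The gonadal marker miR-202-5p, with miR-202-3p, summed to 40260 to 89364 CPM in HQ and 61414 to 76637 CPM in LQ, so that the fluid carried the miRNA typical of its labelled origin. Nearly all of this sum was miR-202-5p, at 86723, 39008 and 88612 CPM in HQ replicates 1 to 3. Its lowest value was thus in HQ replicate 2, the library highest in miR-132. The other arm, miR-202-3p, was at 714, 1252 and 752 CPM in HQ replicates 1 to 3 and 604, 551 and 360 CPM in LQ replicates 1 to 3. Vesicle miRNA comes from many cells, and fewer contributing cells and less miRNA per cell cannot be told apart.

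The members differed widely in abundance. miR-21-5p was the 21st most abundant miRNA in both groups, at 0.724% of the summed CPM in HQ replicate 1 and up to 1.11% in LQ replicate 2. miR-132 ranked 115th in HQ and 149th in LQ, and miR-212 300th and 320th. Their order, miR-21-5p above miR-132 above miR-212, was the same in each of the 6 libraries.

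miR-132 was higher in HQ s-EVs. HQ replicates 1 to 3 held 159, 274 and 207 CPM, and LQ replicates 1 to 3 held 66.3, 112 and 69.8 CPM. The groups did not overlap, and the lowest HQ value was 1.42 times the highest LQ value. Replicate 2 was the highest library of each group. In steps taken as reads, the values rested on 338 to 616 reads in HQ and on 54 (LQ replicate 1) to 253 in LQ. As a share of the summed CPM of its library, which removes the TMM scaling, miR-132 made up 0.0167% to 0.0299% in HQ and 0.00601% to 0.0108% in LQ. Of all tested miRNAs, 43.7% had groups that did not overlap, and in 65 of 309 every HQ library lay above every LQ library.

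For miR-132, the HQ mean was 213 ± 57.9 CPM and the LQ mean 82.6 ± 25.2 CPM (SD, n = 3 each). In limma on log2(CPM + 0.5), fitted over the 309 miRNAs whose HQ or LQ mean exceeded 1 CPM, this was a fold of 2.58 with a 95% interval of 1.71 to 3.89 (log2 fold change 1.37, standard error 0.282, Benjamini-Hochberg adjusted p = 0.00259). It was the 10th highest log2 fold change of the 309. All 3 members were among the 309, and miR-132 alone had an adjusted p under 0.05, as had 26.5% of all tested. At the thresholds of the study (fold of at least 2, adjusted p under 0.05, more than 5 CPM in the enriched group), miR-132 was the only member called, while 5.18% of all tested miRNAs were called as higher in HQ and 7.44% as higher in LQ. Its difference was among the results of these data known when the members were chosen, so the call is no independent evidence. It passed without each library in turn, with adjusted p of 0.00189 to 0.0427, the highest without HQ replicate 2. It did not pass when all 453 miRNAs were tested with no filter (adjusted p = 0.0884).

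**Figure D2:**
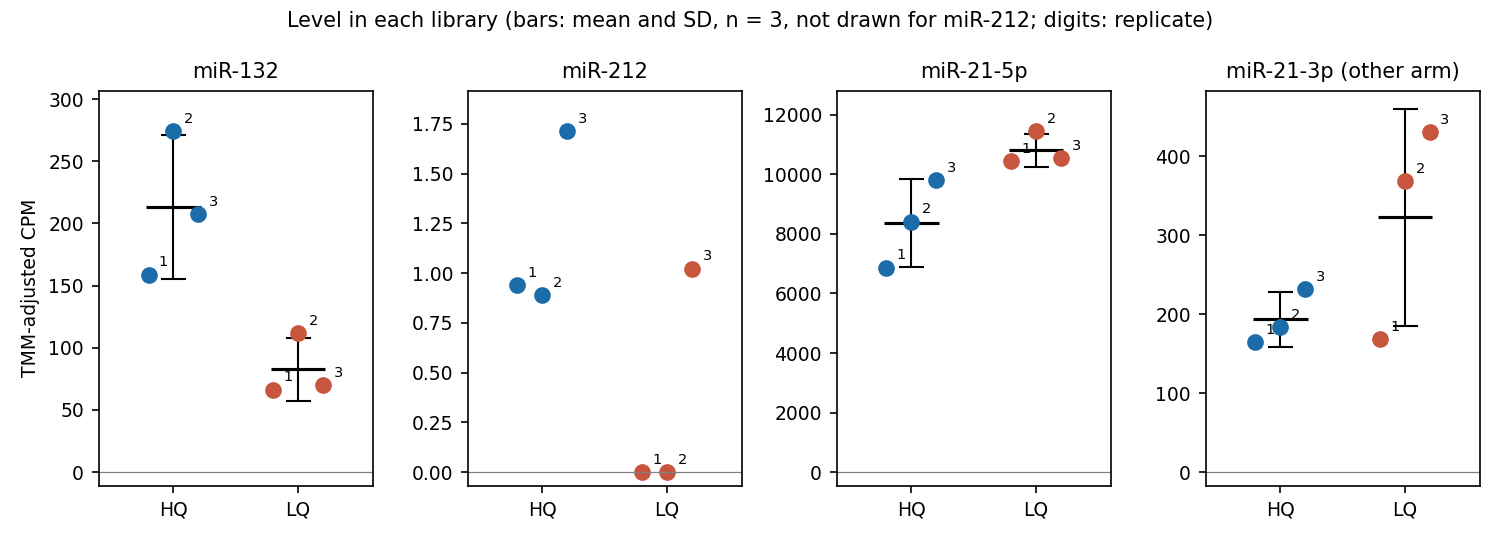
TMM-adjusted CPM of miR-132, miR-212, miR-21-5p and miR-21-3p in each HQ (blue) and LQ (red) library, with digits for the replicate and bars for the mean and SD (n = 3) except for miR-212. All HQ libraries lie above all LQ libraries for miR-132, at 159 CPM or more against 112 CPM or less, and below them for miR-21-5p. As a share of the summed CPM, the groups of miR-21-5p overlap.

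miR-212 was at the limit of detection. HQ replicates 1 to 3 held 0.939, 0.890 and 1.71 CPM, that is 2, 2 and 3 steps. LQ replicate 3 held 1.02 CPM, or 3 steps, and LQ replicates 1 and 2 were at 0, which allows up to 3.68 and 1.32 CPM (3 reads). The groups overlapped. Summed over libraries, with a step taken as 1 read, 7 in HQ against 3 in LQ gave a ratio of 2.29 for HQ over LQ once depth was taken into account, with a 95% exact binomial interval of 0.523 to 13.7 that covers counting error only. No difference was detectable at this depth, with an adjusted p of 0.394 in limma, and at this level miR-212 could not have met the CPM threshold of a call. It passed the filter on low values only through its HQ mean of 1.18 CPM.

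The annotated sequences of the neighbouring hairpins were therefore at very unequal levels. They are unlike arms, 3′ for MIR132 and 5′ for MIR212, so they do not compare the output of the hairpins. Over all libraries, 1829 steps of miR-132 stood against 10 of miR-212, a ratio of 183. It was 188 in HQ (1317 against 7) and 171 in LQ (512 against 3), and with so few miR-212 reads these ratios cannot be told apart.

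miR-21-5p, far more abundant, did not pass the test. Its HQ replicates 1 to 3 held 6872, 8412 and 9814 CPM, and LQ replicates 1 to 3 held 10440, 11448 and 10558 CPM. Each LQ library lay above each HQ library, HQ replicate 3 and LQ replicate 1 being the closest. Such a separation was common, with 22.7% of all tested miRNAs wholly higher in LQ. As a share of the summed CPM, which removes the TMM scaling, the groups overlapped. HQ replicate 3, at 1.05%, then lay above LQ replicate 1 (0.946%) and LQ replicate 3 (0.981%). The HQ mean was 8366 ± 1471 CPM and the LQ mean 10815 ± 551 CPM (SD, n = 3 each). The fold of LQ over HQ was 1.31, with a 95% interval of 0.980 to 1.74 (log2 fold change of HQ against LQ -0.38, standard error 0.198, adjusted p = 0.151 in limma). A fold of 2 lies outside this interval, while an equal level lies inside it. After a correction for the GC content of the mature sequences, the log2 fold change of miR-21-5p was 0.055 (adjusted p = 0.871). Its GC content is 36.4%, against a median of 47.8% over the tested miRNAs of known sequence and 50.0% for miR-132, whose log2 fold change was 1.31 after the same correction.

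**Figure D3:**
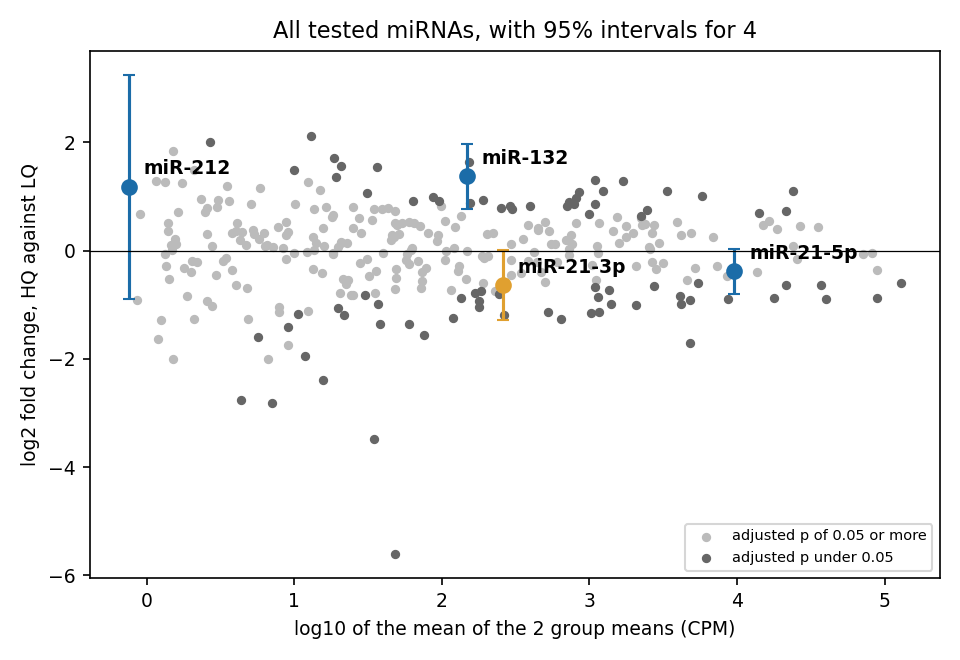
Log2 fold change of HQ against LQ (y) by mean level (x, log10 CPM) for the 309 tested miRNAs, dark where the adjusted p was under 0.05, with 95% intervals for the 3 members (blue) and miR-21-3p (yellow). Only the interval of miR-132 lies wholly above 0, and that of miR-212 is the widest of the 4.

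The other arm of the miR-21 hairpin, miR-21-3p, a passenger strand found at lower levels, was followed as a second readout of the same precursor. HQ replicates 1 to 3 held 165, 184 and 232 CPM. LQ replicates 2 and 3 held 369 and 431 CPM, while LQ replicate 1, at 168 CPM and 137 steps, lay within the HQ range. The difference did not pass the test (log2 fold change -0.64, standard error 0.308, adjusted p = 0.129 in limma). Without LQ replicate 1, the shallowest library, it was -1.06 (adjusted p = 0.00503). Without LQ replicate 2 it was -0.49 (adjusted p = 0.363), and without LQ replicate 3 -0.38 (adjusted p = 0.442).

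Ratios within a library do not depend on the scaling between libraries. Per 1000 miR-21-5p, HQ replicates 1 to 3 held 23.1, 32.6 and 21.1 of miR-132, and LQ replicates 1 to 3 held 6.35, 9.75 and 6.61. The groups did not overlap, and the log2 ratio was higher by 1.75 in HQ, a fold of 3.37 (-5.31 ± 0.330 in HQ and -7.06 ± 0.339 in LQ, SD, n = 3 each, exact two-sided permutation p = 0.1, the lowest value possible with 3 against 3). This is the gap between the log2 fold changes of miR-132 (1.37) and miR-21-5p (-0.38), and no separate result. The ratio was not corrected for GC content, and after that correction these log2 fold changes were 1.31 and 0.055. For the ratio of miR-21-3p to miR-21-5p, the groups overlapped. Per 1000 miR-21-5p, miR-21-3p was at 23.97, 21.8 and 23.6 in HQ, close together, and at 16.1, 32.2 and 40.8 in LQ, on both sides of the HQ values (difference in log2 ratio -0.26, exact permutation p = 0.6). This difference was 0.022 without LQ replicate 3 and -0.65 without LQ replicate 1.

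**Figure D4:**
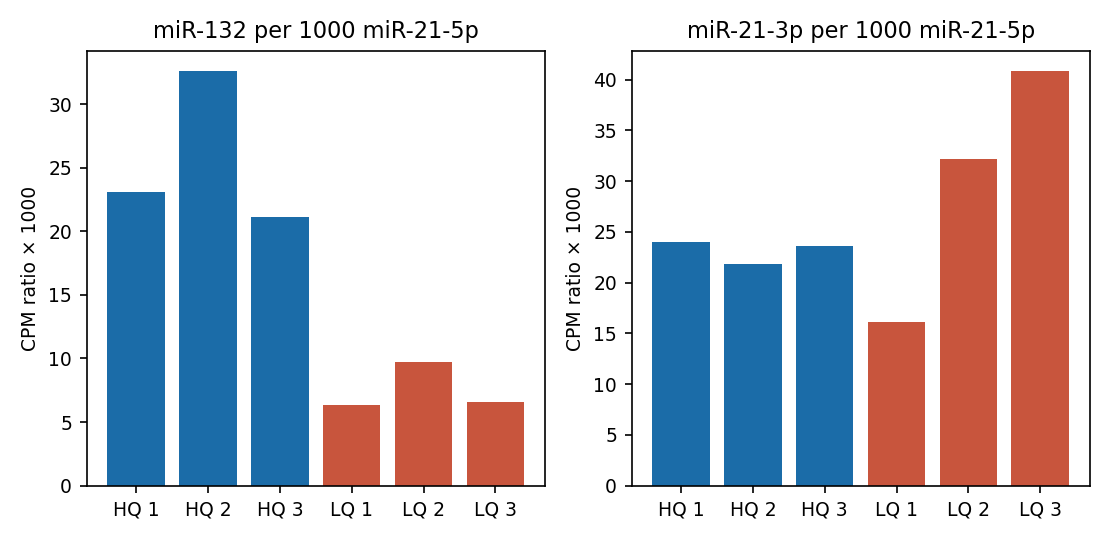
Level of miR-132 (left) and miR-21-3p (right) per 1000 miR-21-5p within each HQ (blue) and LQ (red) library, as bars from 0. The miR-132 ratio is at 21.1 or more in HQ and 9.75 or less in LQ, while the miR-21-3p ratio of HQ lies inside the range of LQ.

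Under equal sums of CPM in all libraries, the median log2 fold change of all tested miRNAs moved from 0.08 to 0.25. Relative to that median, miR-132 was at 1.29 with the deposited scaling and 1.31 with equal sums. miR-21-5p was at -0.46 and -0.44 in the same order. Such a rescaling shifts all miRNAs of a library by nearly the same amount, so this closeness follows from the arithmetic and shows nothing more. Without subtracting the median, miR-132 was at 1.37 and 1.56, and miR-21-5p at -0.38 and -0.19, in the same order. miR-21-5p did not pass the test under either scaling (adjusted p = 0.151 and 0.521 in limma).

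**Figure D5:**
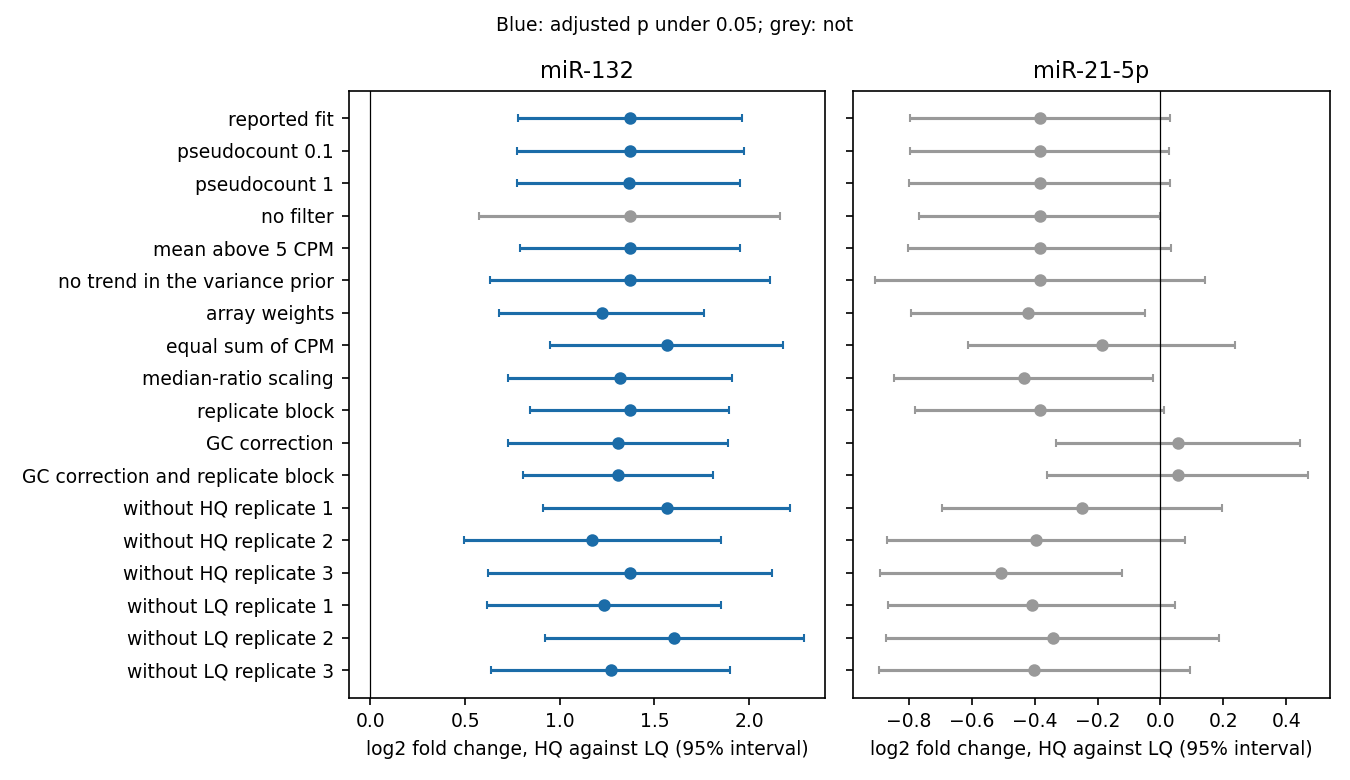
Log2 fold change of HQ against LQ with its 95% interval for miR-132 (left) and miR-21-5p (right) under the reported fit and 17 alternatives, blue where the adjusted p was under 0.05. miR-132 stays between 1.17 and 1.61 and is grey only without a filter, while miR-21-5p lies between -0.51 and 0.055 and is grey throughout.

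The miRNAs that followed the members most closely over the 6 libraries were different for miR-132 and miR-21-5p. Among 134 miRNAs above 100 CPM in both groups, Pearson's r of the log2 values with miR-132 was highest for miR-24-3p (0.970), miR-423-3p (0.962) and miR-99a-5p (0.939). Like miR-132, all 3 were highest in HQ replicate 2 and, within LQ, in LQ replicate 2. With miR-21-5p, r was highest for miR-340 (0.990), miR-30e-5p (0.966) and miR-15a (0.962). These followed the order of miR-21-5p within each group, lowest in HQ replicate 1 and highest in LQ replicate 2. Its own other arm, miR-21-3p, ranked 42nd, at 0.670. These correlations describe 6 libraries that share 2 groups and differ in depth, and no test was made.

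The nearest neighbours on chromosome 12 differed in direction, and not all passed the test. Neighbours were sought among the miRNAs matched to the annotation, and the 86 unmatched miRNAs, miR-22-3p, miR-301 and miR-454 among them, have no position here. The nearest matched miRNA on one side of miR-132, miR-423-3p at 1.95 Mb, had an HQ mean of 4639 ± 1515 CPM and an LQ mean of 2112 ± 359 CPM (SD, n = 3 each, log2 fold change 1.102, adjusted p = 0.00325 in limma, 0.140 after the GC correction and 0.0606 without the trend in the variance prior). On the other side of the pair, miR-195, of the miR-15/16 family, at 4.26 Mb from miR-212, had -0.28 (adjusted p = 0.333). Beside miR-21, the leukocyte miRNA miR-142-5p at 1.46 Mb had -1.36 (adjusted p = 0.00365, and 0.0592 after the GC correction) and miR-365-5p at 7.26 Mb had 0.52 (adjusted p = 0.728). Of 20 tested miRNAs annotated on chromosome 12, 5 were higher in HQ, miR-132 among them, 5 in LQ, and 10 missed the threshold. Their median log2 fold change was -0.17, against 0.08 over all 309, of which 11.7% were higher in HQ and 14.9% in LQ by adjusted p (36 and 46, against 60 and 27 under equal sums of CPM).

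Other miRNAs known to act in ovarian follicles were compared as a list of 17, chosen with earlier results of these data known. Of 16 tested, 3 were higher in HQ, 1 in LQ, and 12 missed the threshold, with a median log2 fold change of 0.01 against 0.08 over all tested, of which 11.7% were higher in HQ and 14.9% in LQ. miR-125b, which androgens are known to induce in mouse granulosa cells, was at 3253, 2517 and 1506 CPM in HQ replicates 1 to 3 and 913, 922 and 996 CPM in LQ replicates 1 to 3. Its log2 fold change, 1.29 (adjusted p = 0.00222 in limma), was close to that of miR-132, but its HQ libraries followed another order, with replicate 1 the highest. The paper's droplet digital PCR of s-EV samples found no significant difference in miR-125b between the groups. miR-320, which affects proliferation and steroid output of mouse granulosa cells, reached 1.001 on the log2 scale (adjusted p = 0.00365), with replicate 2 the highest of each group, as for miR-132. It did not pass without the trend in the variance prior (0.0620). miR-145-5p, a brake on granulosa proliferation in the mouse, had 0.78 (adjusted p = 0.0455). It did not pass without HQ replicate 1 (0.240), HQ replicate 3 (0.0889), LQ replicate 1 (0.0664) or LQ replicate 2 (0.111), nor after the GC correction (0.0623), with median-ratio scaling (0.0699), with a pseudocount of 0.1 (0.0517) or without the trend (0.134). The member higher in LQ was miR-133b (-1.96, adjusted p = 0.00222), a muscle miRNA known to repress Foxl2 in mouse granulosa cells. With no filter, none of these 4 passed (adjusted p of 0.0914 for miR-125b and miR-320, 0.218 for miR-145-5p and 0.0557 for miR-133b).

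The most abundant of the 12 that did not pass were miR-202-5p (-0.07, adjusted p = 0.877), miR-92a (0.29, adjusted p = 0.303), miR-26b-5p (0.08, adjusted p = 0.820) and miR-34a (-0.55, adjusted p = 0.0808, and 0.0195 without LQ replicate 1). The adjusted p of miR-34a was 0.256 without LQ replicate 2 and 0.335 without LQ replicate 3. The other arm of the miR-202 hairpin, miR-202-3p, was not in this list and was higher in HQ (0.83, adjusted p = 0.0287 in limma). miR-202 is typical of gonads, miR-92a is known to limit apoptosis of porcine granulosa cells, and miR-26b-5p and miR-34a are known to promote apoptosis of porcine granulosa cells. The miRNAs reported to lower the mRNA of the LH receptor in rat ovary, miR-122-5p and miR-136-3p, were at -0.58 (adjusted p = 0.103) and -0.55 (adjusted p = 0.252). The estradiol regulators miR-224 and miR-378 were at -0.05 (adjusted p = 0.943) and -0.28 (adjusted p = 0.429), and miR-383 was below the filter.

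Markers of other cell types were summed in each library, and their counts stand beside 11.7% higher in HQ and 14.9% in LQ over all tested miRNAs. The 6 leukocyte miRNAs summed to 20204 to 27707 CPM in HQ and 24710 to 28336 CPM in LQ, and 1 of 6, miR-142-5p, was higher in LQ. Nearly all of this sum was miR-146a-5p, whose mean over HQ libraries was 23950 ± 3757 CPM, against 26660 ± 1943 CPM over LQ libraries (SD, n = 3 each). No other leukocyte miRNA had a group mean above that of miR-142-5p for LQ, 87.0 CPM. The other arm of the miR-142 hairpin, miR-142-3p, missed the threshold (log2 fold change -0.15, adjusted p = 0.759 in limma). The sum thus follows miR-146a-5p, and the share of leukocytes was not tested. The 4 epithelial miRNAs summed to 779 to 1063 CPM in HQ and 1301 to 1534 CPM in LQ (1 of 4 higher in LQ), and the endothelial pair to 874 to 1062 and 1619 to 2149 CPM (1 of 2 higher in LQ). The epithelial sum was nearly all miR-141, with means of 841 CPM in HQ and 1340 CPM in LQ. Most of the endothelial sum was miR-126-5p, with means of 718 CPM in HQ and 1587 CPM in LQ. The other arm of that hairpin, miR-126-3p, overlapped between the groups (log2 fold change -0.18, adjusted p = 0.640 in limma). The shares of epithelial and endothelial cells were not tested. miR-21-5p is expressed in these cell types too, and their part in its level was not tested. The 5 neural miRNAs, relevant because miR-132 is also a neuronal miRNA, summed to 30.04 to 36.0 CPM in HQ and 118 to 249 CPM in LQ. Of the 4 tested, miR-9 and miR-9-1 were higher in LQ, opposite in direction to miR-132, while miR-219a, the largest part of the HQ sum, was at 21.9 ± 4.401 CPM in HQ against 13.9 ± 2.41 CPM in LQ (SD, n = 3 each, log2 fold change 0.63, adjusted p = 0.172 in limma), without overlap of the groups. The remaining one, miR-137, had -2.01 (adjusted p = 0.0509), and the defining neural marker miR-124a was at 0 in all libraries except LQ replicate 3, at 1.02 CPM. The name miR-219a matches the 3′ arm of its hairpin in RefSeq, and whether this arm marks neural cells was not tested. Of the erythrocyte markers, miR-486 was higher in HQ and miR-451 in LQ, with sums of 99.3 to 152 CPM in HQ and 78.0 to 87.3 CPM in LQ, and the 3 muscle markers summed to 51.2 to 60.5 CPM and 132.65 to 210 CPM. The part of these cells in the level of miR-132 was not tested.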

How the data were processed

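Per the paper, the authors trimmed reads from a QIAseq library kit, mapped them to Sscrofa11.1 and counted miRBase miRNAs in CLC Genomics Workbench, with TMM scaling. The submitters' notes name bcl2fastq, Bowtie2 2.2.2 and DESeq2, and which tools made the table is not settled. What the authors deposited is TMM-adjusted CPM, a scaled signal. Steps were whole within 6.66e-05 but were not accepted as recovered reads, so no count model was fitted. They stood for reads only in depths, floors, the read numbers of miR-132 and miR-212, their ratio, and the counting interval of miR-212. Whether molecular identifiers were used was not found.

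Groups followed the labelled oocyte quality. miRNAs whose HQ or LQ mean exceeded 1 CPM were tested with limma 3.58.1 (R 4.3.3) on log2(CPM + 0.5) with a trended prior, two-sided, with Benjamini-Hochberg adjustment over all 309. Ratios within a library used exact permutation tests. Members and lists were chosen with earlier results of these data known. Named miRNAs were the members, miR-21-3p, miRNAs sharing a seed, the nearest measured neighbours, the 3 most similar in pattern, and ovarian list members that passed plus the 4 most abundant that did not. The LH receptor and estradiol regulators, the named cell type markers and the named unmatched miRNAs were chosen after their values were seen. RefSeq matched 347 miRNAs by name and 20 without the arm, and left 86 unmatched. The test was tried on simulated data. Alternatives covered pseudocount, filter, prior, array weights, scaling, replicate block, GC correction and leaving out each library. Figures used matplotlib 3.10.9 in Python 3.11.15.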

Additional observations from a re-analysis of the deposited data

How the results depend on the processing

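miR-132 stayed higher in HQ under all 17 alternatives and passed the test in 16, the exception being the fit without a filter (log2 fold change 1.37, adjusted p = 0.0884), where 7 miRNAs had an adjusted p under 0.05 (82 as reported) and 5 were called (39 as reported). Without the trend in the variance prior, these counts were 29 and 24. After the GC correction, over the 256 miRNAs (82.8%) of known sequence, 24 were called. The correction subtracts from each library a line of its deviations on GC content, and so also removes a group difference that follows GC content. miR-21-5p reversed to 0.055 with it, alone or together with the replicate block, and the cause was not tested. miR-21-3p, not covered by that correction, passed with array weights (-0.92, adjusted p = 0.00557), with the replicate block (-0.64, adjusted p = 0.0451) and without LQ replicate 1. Leaving out each library gave log2 fold changes of 1.17 to 1.61 for miR-132, 0.91 to 1.72 for miR-212 (no value without HQ replicate 3, where it fell below the filter), -0.51 to -0.25 for miR-21-5p and -1.06 to -0.38 for miR-21-3p. The log2 ratio of miR-132 to miR-21-5p stayed between 1.57 and 1.95, that of miR-21-3p to miR-21-5p between -0.65 and 0.022, reversing without LQ replicate 3. The number with an adjusted p under 0.05 ran from 29 (without HQ replicate 2) to 109 (without LQ replicate 1), being 48 without HQ replicate 1 and 46 without LQ replicate 2, and the number called from 22 to 53. With equal sums of CPM, 31 were called higher in HQ and 12 in LQ, against 16 and 23, and by adjusted p alone 60 and 27, against 36 and 46.

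The replicate numbers are shared by the groups, but same-numbered libraries did not deviate together (r of -0.0052, -0.013 and -0.036 across miRNAs, no library correlating best with its own number), so they were not treated as pairs. With the number as a block, 97 miRNAs had an adjusted p under 0.05. miR-212, at 0 to 3 reads a library, is limited by depth.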
